A study of Mus musculus with 24 samples.

Results

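The comparison described here asked whether the transcriptional response to torin1 differed between mouse embryonic fibroblasts (MEFs) with and without AMPK. Torin1 blocks the kinase MTOR. Each gene's difference between torin1 and vehicle (DMSO) was taken in wild-type (WT) cells and in cells labelled AMPK KO, and the WT difference was subtracted from the AMPK KO difference on the log2 scale. This difference of differences, called the interaction below, is positive where the torin1 response was higher in AMPK KO and negative where it was lower. It rests on 16 of the 24 libraries of the series, 4 in each of the groups WT DMSO, WT torin1, AMPK KO DMSO and AMPK KO torin1, and 15828 of the 55487 genes in the table had enough counts to be tested. The study describes the AMPK KO MEFs as lacking both catalytic subunit genes, Prkaa1 and Prkaa2. WT libraries come from passages 12 to 15 and AMPK KO libraries from passages 16 to 19, with 1 library of each passage in each group, so that genotype and passage range cannot be told apart. The labels do not tie passages to separate animals or derivations, and p-values therefore measure only the spread between these libraries. The labels give neither the concentration nor the time of treatment for these libraries.

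MTOR complex 1 (MTORC1) is a nutrient- and growth factor-sensing kinase at the lysosome. When active, it favours translation, ribosome production and ATF4-driven amino acid supply genes, and it keeps the transcription factors TFEB and TFE3 out of the nucleus. AMPK, an energy-sensing kinase, is activated when cellular energy falls, and it restrains MTORC1 through TSC2 and RPTOR. Torin1 acts on the MTOR kinase itself, downstream of these inputs and in both MTOR complexes.

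Total estimated counts lay between 27022814 and 34192685 per library, and RNA integrity numbers between 9.7 and 10. The libraries deviated from their group means by 0.0723 to 0.161 (root mean square on the log2 scale), with the highest values in both WT libraries of passage 12. Of 11 fibroblast markers, 9 passed the filter, and their summed level was 10600 to 15100 CPM (counts scaled so that libraries of different depth compare) in WT DMSO, 13800 to 17200 in WT torin1, 5220 to 5650 in AMPK KO DMSO and 6950 to 7430 in AMPK KO torin1. The other markers, Dcn and Lum, lay under 1 CPM in each library. Among fibroblast markers, the interaction of Col3a1 and Pdgfra was lower in AMPK KO, and the part of this in other results was not tested. Summed markers of epithelial, endothelial, blood, muscle and fat cells came to at most 6.93 CPM in each library, with the macrophage marker Adgre1 at 0. Neural markers came to 28.1 to 53.5 CPM, mostly from Map2, a microtubule protein whose interaction was called higher (0.39). Prkaa1 RNA lay between 66.9 and 83.1 CPM and Prkaa2 RNA between 2.34 and 5.71 CPM over the 16 libraries. Levels given below with ± are means and SD of the 4 libraries of a group (n = 4). Since a disrupted gene can still be transcribed, gene-level RNA does not check the genotype.

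The torin1 response differed between the genotypes for 1861 genes, 11.8% of those tested (edgeR quasi-likelihood test with passage within genotype as a block). A call asked for a Benjamini-Hochberg adjusted p below 0.05 together with a change of 1.2-fold or more. It was higher in AMPK KO for 987 genes (6.24%) and lower for 874 (5.52%). By comparison, torin1 itself changed more genes in each genotype: in WT, 4382 (27.7%) rose and 3463 (21.9%) fell, and in AMPK KO, 4349 (27.5%) rose and 2902 (18.3%) fell. The differences in response were mostly modest in size. The median absolute interaction was 0.41 (log2) among the genes called and 0.167 among all genes tested, and 198 genes had an interaction of at least 1 in either direction. In 1579 of the 1861 genes (84.8%), the torin1 responses of the 4 WT passages and of the 4 AMPK KO passages did not overlap in the direction of the call. Over all genes tested, the AMPK KO responses lay wholly above the WT responses in 13.1% and wholly below in 8.88%. In RNA from whole cultures, a lower level per cell and fewer cells carrying a transcript cannot be told apart.

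The total of called genes was 1860 to 1873 under other scalings of the libraries and 1848 in a fit of the 16 libraries alone, which tested 15605 genes, but its split by direction moved. The share that was higher in AMPK KO was 53% with the scaling used, 43.5% with DESeq2 size factors, 38.6% with library size alone, 39.8% with TMM (trimmed mean of M values) factors averaged over reference libraries and 26.6% in a fit of the 16 libraries alone. None of the 1861 genes changed its sign in these fits, and the median interaction of all genes moved from 0.014 to as low as -0.024 under the scalings and to -0.059 with the 16 libraries alone, so that calls near the fold threshold moved with it. Leaving out the WT torin1 library of passage 14 or 15, the AMPK KO DMSO library of passage 16 or 18 or the AMPK KO torin1 library of passage 17 or 19 moved that median to between -0.061 and -0.055, and these are called the 6 shifting libraries below. The name refers to fits that were rescaled after a library was left out. With scaling factors kept, the median without any one of these libraries was 0.012 to 0.017. The split between directions is therefore given with each scaling, and the larger interactions below are many times this shift.

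**Figure D1:**
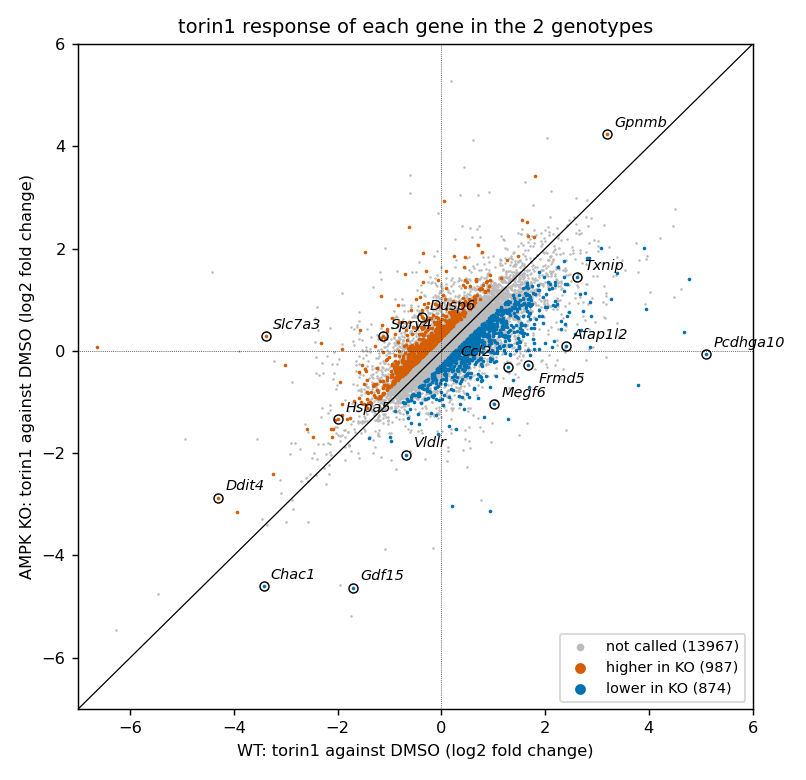
Torin1 response of each tested gene in WT (horizontal axis) and in AMPK KO (vertical axis), both as log2 fold change against DMSO. Orange points are the 987 genes with a higher and blue points the 874 genes with a lower response in AMPK KO, the diagonal marks equal responses, ringed genes are described in the text, and 3 genes lie outside the axes.

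Sorted by what torin1 did in each genotype, the 987 genes with a higher response in AMPK KO were mainly genes that torin1 lowered in WT. Of these, 306 (31.0%) fell in WT with no call in AMPK KO, 205 (20.8%) fell in both and 22 (2.23%) fell in WT and rose in AMPK KO, while 208 (21.1%) rose in AMPK KO with no call in WT and 97 (9.83%) rose in both. The 874 genes with a lower response in AMPK KO were mainly genes that torin1 raised in WT. Of these, 333 (38.1%) rose in both genotypes, 306 (35.0%) rose in WT with no call in AMPK KO, 28 (3.2%) rose in WT and fell in AMPK KO, 100 (11.4%) fell in AMPK KO with no call in WT and 48 (5.49%) fell in both. The genotypes also stood apart before treatment, with 56.9% of genes called between AMPK KO and WT in DMSO and 54.6% in torin1. Among the 987 genes, 247 were below WT in DMSO and not called between genotypes in torin1, and among the 874, 175 were above WT in DMSO and not called in torin1. These levels share libraries with the interaction and are given as a description.

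Of 45 gene lists, the one with the largest share of called members was that of the chaperones of the endoplasmic reticulum (ER) and the unfolded protein response. These proteins fold and export or degrade secretory proteins, and their genes are driven by the sensors ATF6, IRE1 (gene Ern1) with XBP1, and PERK (gene Eif2ak3). Of 27 members tested, 20 had a higher torin1 response in AMPK KO and 1, Xbp1, a lower one. That is 74.1% and 3.7% of members, against 6.24% and 5.52% of all genes tested. The list's median interaction was 0.48, against 0.014 over all genes. In WT 22 members fell and in AMPK KO 17 fell and 2 rose, with a median log2 response of -0.84 in WT and -0.41 in AMPK KO, so that the fall was typically shallower in AMPK KO.

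The ER stress response element, CCAAT and CCACG with 9 bases of any kind between them, on either strand, is the known binding site of ATF6 with NF-Y in promoters of such genes, and it was searched in the 300 bases from 250 before to 50 after the annotated start (RefSeq sequences, GRCm38.p6), which were at hand for 10817 of the tested genes. Only 15 of these windows (0.139%) held it. It was in 10 of the 760 windows of genes called higher (1.32%) and in 0 of the 660 windows of genes called lower. Of the 22 list members with a window, 8 (36.4%) held it. Of the 16 members called higher that had a window, 7 (43.8%) held it, and the windows of Pdia4 and Sdf2l1, also called higher, did not. The windows of 5 members that held the element and were called higher are shown, with the element in capitals.
Hspa5 (chr2:34771840-34772139, plus strand): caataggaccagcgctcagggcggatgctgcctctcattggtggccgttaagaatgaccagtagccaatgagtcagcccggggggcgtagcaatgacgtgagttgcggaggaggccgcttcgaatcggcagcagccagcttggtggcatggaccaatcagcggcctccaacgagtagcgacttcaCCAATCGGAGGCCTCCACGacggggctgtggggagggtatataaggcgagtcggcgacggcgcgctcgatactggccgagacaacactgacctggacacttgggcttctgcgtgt
Creld2 (chr15:88819396-88819695, plus strand): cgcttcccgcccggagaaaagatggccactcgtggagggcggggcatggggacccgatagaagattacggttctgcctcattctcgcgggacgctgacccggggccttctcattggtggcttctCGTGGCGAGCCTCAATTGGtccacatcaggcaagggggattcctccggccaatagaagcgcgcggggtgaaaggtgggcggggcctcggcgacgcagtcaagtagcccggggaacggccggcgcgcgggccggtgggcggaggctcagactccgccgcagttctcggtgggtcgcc
Hsp90b1 (chr10:86705395-86705694, minus strand): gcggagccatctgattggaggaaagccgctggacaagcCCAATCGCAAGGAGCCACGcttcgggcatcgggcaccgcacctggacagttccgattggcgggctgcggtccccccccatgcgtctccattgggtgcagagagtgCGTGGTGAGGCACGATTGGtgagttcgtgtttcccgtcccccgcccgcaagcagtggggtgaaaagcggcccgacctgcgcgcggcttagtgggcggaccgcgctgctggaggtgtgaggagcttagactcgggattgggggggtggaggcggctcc
Calr (chr8:84846882-84847181, minus strand): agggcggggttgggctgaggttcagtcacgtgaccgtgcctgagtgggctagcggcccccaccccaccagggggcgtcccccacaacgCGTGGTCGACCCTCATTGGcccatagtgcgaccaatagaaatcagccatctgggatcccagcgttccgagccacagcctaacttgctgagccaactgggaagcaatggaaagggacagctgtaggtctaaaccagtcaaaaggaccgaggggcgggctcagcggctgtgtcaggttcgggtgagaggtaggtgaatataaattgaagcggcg
Pdia6 (chr12:17266339-17266638, plus strand): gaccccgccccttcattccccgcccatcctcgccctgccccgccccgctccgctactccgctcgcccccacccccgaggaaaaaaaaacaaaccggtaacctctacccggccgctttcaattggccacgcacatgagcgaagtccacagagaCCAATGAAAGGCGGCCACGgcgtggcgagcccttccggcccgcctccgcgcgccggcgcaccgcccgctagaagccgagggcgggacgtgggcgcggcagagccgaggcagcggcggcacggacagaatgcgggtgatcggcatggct
In Hspa5 and Pdia6 the element reads forward, in Creld2 and Calr as its reverse complement, and Hsp90b1 holds both. Its first base lies 65 bases before the start of Hspa5, 98 before Pdia6, 126 before Creld2 and 162 before Calr, and 212 and 107 before Hsp90b1. Besides these, Dnajc3 and Syvn1 of the list held the element and were called higher, as were Adcy3, Pan2 and Zfp57, which are not in the list. Canx of the list and Hnrnpa3, Alg12, Spats2l and Acacb held it without a call. A match of letters is a description and not a binding site. Since the list holds genes of the response that the element is known for, its share in the list says nothing about the interaction.

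Creld2, a secreted ER stress protein, had the smallest p of the group. It was at 113, 101, 106 and 106 CPM in WT DMSO (passages 12 to 15 in order, here and below) and at 36.8, 43.1, 36.2 and 34.6 in WT torin1. Creld2 in AMPK KO was at 82.2, 81.5, 79.5 and 88.1 CPM in DMSO (passages 16 to 19 in order, here and below) and at 51.7, 54.0, 51.3 and 53.9 in torin1. Every AMPK KO library thus lay below every WT library in DMSO and above every WT library in torin1. The fall was 2.83-fold in WT and 1.57-fold in AMPK KO, an interaction of 0.85 (SE 0.07, edgeR adjusted p = 8.4e-07).

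Hspa5, which encodes BiP, the main ER chaperone of the HSP70 family, was at 1670, 1530, 1700 and 1800 CPM in WT DMSO and at 410, 521, 391 and 376 in WT torin1. Hspa5 in AMPK KO was at 1010, 917, 930 and 1010 CPM in DMSO and at 356, 412, 373 and 381 in torin1. The genotypes were apart in DMSO and overlapped in torin1. The fall was 3.96-fold in WT and 2.54-fold in AMPK KO (interaction 0.64, SE 0.11, edgeR adjusted p = 0.00041).

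Dnajc3, a co-chaperone that also restrains PERK, fell from 168 ± 12.6 to 68.0 ± 3.42 CPM in WT, and AMPK KO values went from 73.7 ± 4.93 to 47.3 ± 1.37. Its interaction was 0.66 (SE 0.07, edgeR adjusted p = 4.2e-06). Hyou1, an ER chaperone and nucleotide exchange factor, fell from 594 ± 25.5 to 222 ± 18.1 CPM in WT, and AMPK KO values went from 308 ± 6.68 to 174 ± 8.85, with an interaction of 0.60 (SE 0.06, edgeR adjusted p = 3.8e-06). In each of these genes the drop was shallower in AMPK KO, starting from a lower DMSO level. The protein disulfide isomerase gene Pdia4 fell from 378 ± 24.9 to 203 ± 12.2 CPM in WT, and AMPK KO values went from 210 ± 4.81 to 170 ± 7.76, an interaction of 0.59 (SE 0.06, edgeR adjusted p = 4.3e-06).

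Interactions of the other members called higher ran from 0.26 for Atf6 to 0.67 for Sdf2l1, apart from Ero1lb at 0.81. They include Edem1, Sel1l and Syvn1 of ER-associated degradation at 0.61, 0.52 and 0.44, and the sensor gene Eif2ak3 at 0.33. Ero1lb, an oxidase that renews protein disulfide isomerase, moved in opposite directions, from 14.7 ± 1.06 to 11.3 ± 0.635 CPM in WT, and AMPK KO values went from 4.72 ± 0.594 to 6.33 ± 0.646. Xbp1 went the other way with an interaction of -0.32 (SE 0.11, edgeR adjusted p = 0.046), since its RNA fell further in AMPK KO. Counts per gene do not separate the spliced and unspliced Xbp1 forms. The number called higher was 17 to 22 when single libraries were left out, 18 or 19 under other scalings and 17 with the 16 libraries alone, while Xbp1 was called in 7 of 16 fits that left out 1 library and not without the block.

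**Figure D2:**
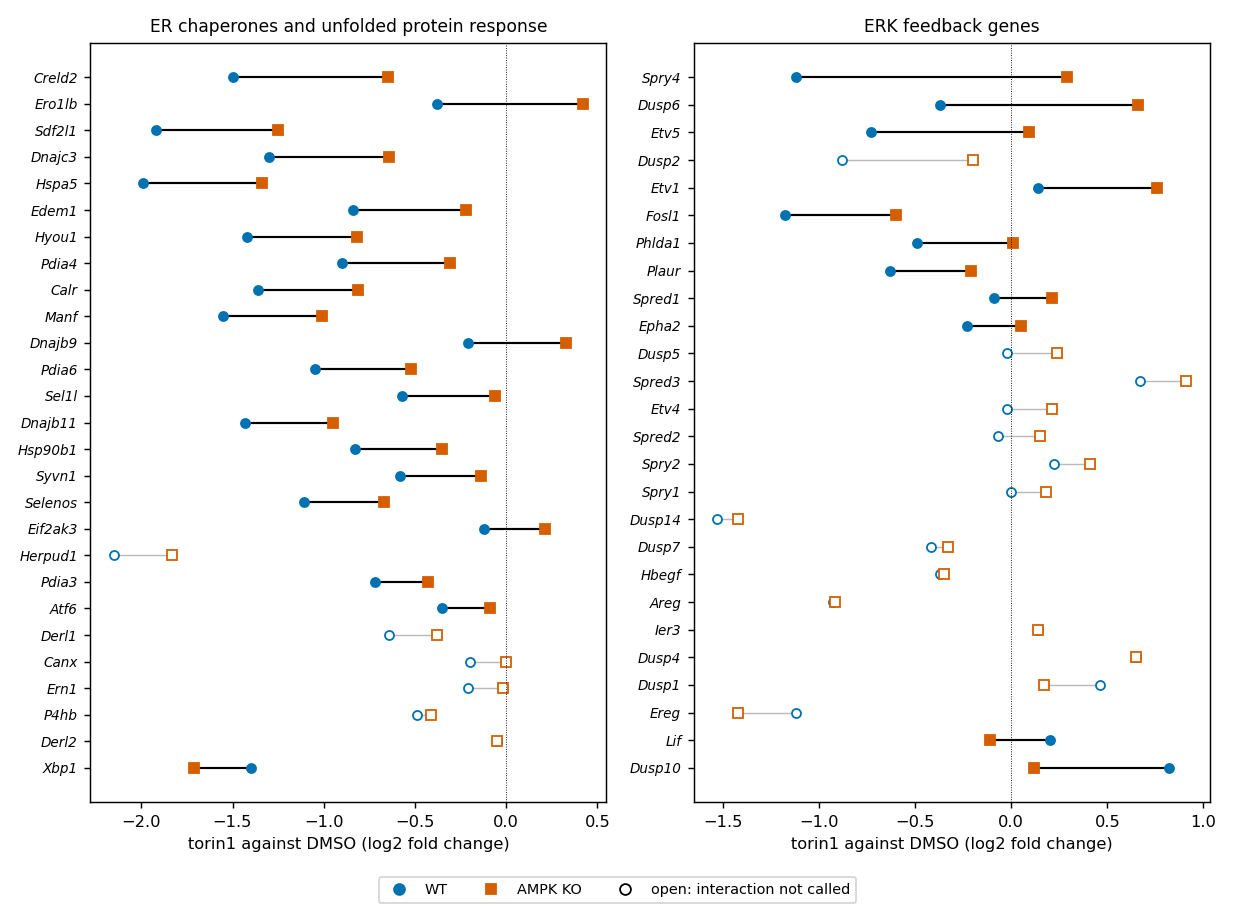
Torin1 response (log2 fold change against DMSO) of each tested member of the ER chaperone list (left) and the ERK feedback list (right) in WT (circles) and AMPK KO (squares), ordered by interaction. Filled symbols mark the members whose interaction was called, 21 of 27 on the left and 11 of 26 on the right, and where both responses are equal the square covers the circle.

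ATF4 drives genes for amino acid synthesis and import, tRNA charging and stress signalling, and part of this programme depends on MTORC1. These genes fell in both genotypes, with a median log2 response of -1.95 in WT and -1.98 in AMPK KO over 39 members, of which 37 fell in WT and 36 in AMPK KO. The interaction was called higher in AMPK KO for 5 members and lower for 3, with a median of 0.09. These shares were 12.8% and 7.69%, against 6.24% and 5.52% of all genes tested. The count of 5 went to 3 without the AMPK KO library of passage 16 in DMSO, of passage 17 in torin1 or of passage 19 in torin1, and to 3 without the block. The count of 3 went to 8, and thus above the other, without the WT torin1 library of passage 12, and to 1 without the block. Single members nevertheless held some of the largest interactions in the data.

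Slc7a3 (chromosome X, 101079210 to 101086020, minus strand, GRCm38), which encodes the cationic amino acid transporter CAT3, had the largest positive interaction among genes named by the rule. It was at 42.9, 18.7, 15.8 and 16.4 CPM in WT DMSO and at 2.53, 1.65, 1.80 and 2.65 in WT torin1. Slc7a3 in AMPK KO was at 1.01, 1.0, 0.93 and 0.818 CPM in DMSO and at 0.891, 1.17, 1.53 and 1.01 in torin1. Only WT cells in DMSO thus carried more than 3 CPM, and the passage 12 library carried more than the other WT DMSO libraries. Torin1 lowered the gene 10.5-fold in WT and left no detectable change in AMPK KO, where counts were 25 to 51 per library (log2 response 0.29, SE 0.28, edgeR adjusted p = 0.37). The interaction was 3.68 (SE 0.33, edgeR adjusted p = 8.4e-07), and 3.36 to 3.88 when single libraries were left out. Among the other 26 amino acid transporters tested, Slc38a4 was called (0.50, edgeR adjusted p = 0.029), and fits without single libraries gave 1 to 3 higher and 0 to 3 lower calls over the list. Slc7a11, the cystine transporter and an ATF4 target, had an interaction of 0.83 (SE 0.34, edgeR adjusted p = 0.099) that missed the threshold.

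Ddit4 and Sesn2 encode REDD1 and SESN2, stress-induced proteins that restrain MTORC1. Ddit4 (chromosome 10, 59949669 to 59951834, minus strand) was at 65.5, 48.2, 53.1 and 61.3 CPM in WT DMSO and at 2.59, 3.93, 2.10 and 2.86 in WT torin1. Ddit4 in AMPK KO was at 36.1, 35.7, 47.8 and 40.3 CPM in DMSO and at 6.14, 6.09, 4.81 and 4.76 in torin1. AMPK KO libraries lay below WT in DMSO and above WT in torin1 without overlap. The fall was 19.8-fold in WT and 7.30-fold in AMPK KO, an interaction of 1.44 (SE 0.19, edgeR adjusted p = 3.6e-05). Sesn2 fell from 89.3 ± 11.1 to 9.42 ± 1.29 CPM in WT, and AMPK KO values went from 104 ± 16.1 to 19.7 ± 1.46, with an interaction of 0.84 (SE 0.16, edgeR adjusted p = 0.00096). Stc2, a secreted glycoprotein, and Jdp2, a partner of JUN, had interactions of 0.79 and 0.42.

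Chac1, a glutathione-degrading enzyme and ATF4 target, went the other way. It was at 58.3, 46.2, 49.1 and 51.2 CPM in WT DMSO and at 5.66, 4.38, 4.31 and 4.82 in WT torin1. Chac1 in AMPK KO was at 59.9, 61.3, 88.4 and 70.2 CPM in DMSO and at 2.95, 3.06, 2.80 and 2.66 in torin1. Here AMPK KO libraries lay above WT in DMSO and below WT in torin1 without overlap. The fall was 10.7-fold in WT and 24.2-fold in AMPK KO (interaction -1.17, SE 0.18, edgeR adjusted p = 0.00014).

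Vldlr, a lipoprotein receptor, fell from 86.9, 30.8, 23.3 and 26.4 CPM to 37.3, 13.8, 23.3 and 22.1 in WT and from 87.2, 47.4, 74.8 and 52.1 to 17.3, 13.4, 16.2 and 15.7 in AMPK KO. The WT libraries of passage 12 were the highest in both treatments. The interaction was -1.35 (SE 0.21, edgeR adjusted p = 0.00019), and the adjusted p was 0.17 without the block. Gdf15, a secreted stress cytokine, had 37 to 99 counts per library in AMPK KO DMSO and at most 11 in each other library. Its fitted interaction of -2.93 (SE 0.95) was called in 9 of 16 fits that left out 1 library and not without the block. Trib3, a pseudokinase induced by ATF4, had an interaction of 0.72 (SE 0.26, edgeR adjusted p = 0.056).

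Of 20 cytosolic aminoacyl-tRNA synthetases, which charge tRNAs with amino acids, Cars, Aars and Mars1 had shallower falls in AMPK KO, with interactions of 0.58, 0.46 and 0.29, and the list median was 0.08. The share called was 15.0%, against 11.8% of all genes tested. The 3 calls became 1 without the block and 8 without the WT torin1 library of passage 14 at kept scaling factors. Nucleotide synthesis enzymes had 0 calls of 28, and 0 to 3 lower without single libraries (edgeR, as for each list, and DESeq2 was also run as an alternative).

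**Figure D3:**
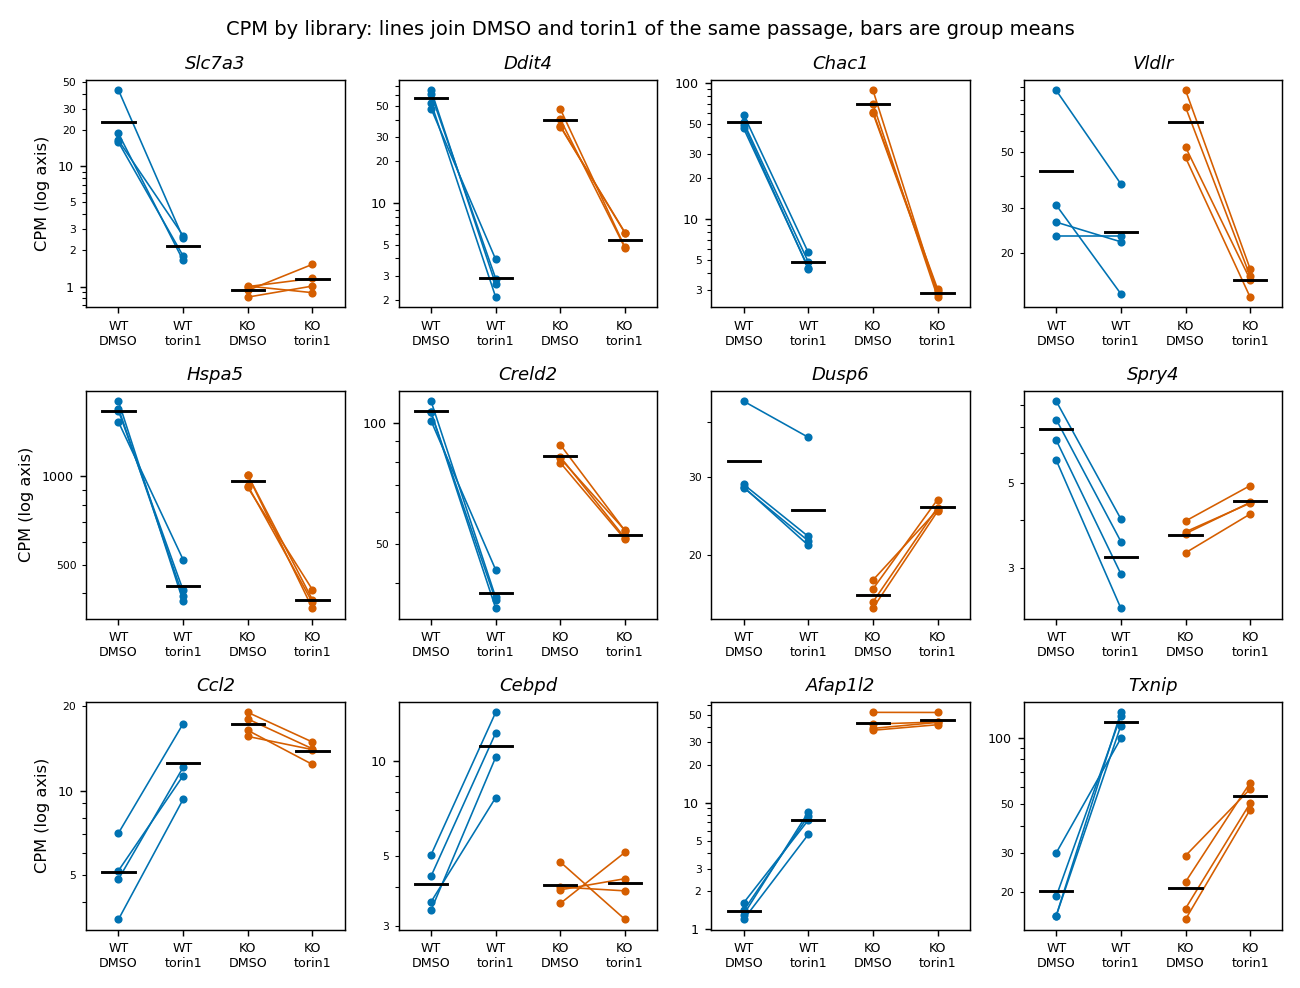
CPM (log axis) in each library for 12 genes, with WT in blue and AMPK KO in orange. Lines join DMSO and torin1 libraries of the same passage and black bars are the means of 4 libraries: the lines of Ddit4 and Creld2 fall more steeply in WT than in AMPK KO, those of Spry4 and Dusp6 fall in WT and rise in AMPK KO, those of Ccl2 rise in WT and fall in AMPK KO, and those of Afap1l2 rise far less in AMPK KO than in WT.

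The kinase ERK, at the end of the RAS and MAP kinase cascade, induces its own inhibitors (the sprouty and SPRED proteins and dual-specificity phosphatases), ETS-family factors and immediate early genes, which answer to growth factors within minutes. Of 26 ERK feedback genes tested, 9 had a higher torin1 response in AMPK KO and 2 a lower one, with a median interaction of 0.22. Over the list, 34.6% were called higher and 7.69% lower, against 6.24% and 5.52% of all genes tested. The median log2 response was -0.16 in WT and 0.13 in AMPK KO. Without the block, 4 were called higher and 1 lower, and without single libraries 6 to 12 and 1 to 3.

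Spry4, an inhibitor of receptor tyrosine kinase signalling, was at 8.16, 7.31, 6.46 and 5.73 CPM in WT DMSO and at 4.03, 3.52, 2.90 and 2.36 in WT torin1. Spry4 in AMPK KO was at 3.29, 3.98, 3.69 and 3.73 CPM in DMSO and at 4.15, 4.92, 4.45 and 4.43 in torin1. It fell in every WT passage and rose in every AMPK KO passage. The interaction was 1.40 (SE 0.12, edgeR adjusted p = 8.4e-07), of which the fall in WT was 2.17-fold and the rise in AMPK KO 1.22-fold.

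Dusp6, the phosphatase of cytoplasmic ERK, was at 44.7, 28.9, 28.5 and 28.4 CPM in WT DMSO and at 37.0, 22, 21 and 21.5 in WT torin1. Dusp6 in AMPK KO was at 16.7, 17.5, 15.1 and 15.6 CPM in DMSO and at 26.7, 25.3, 25.1 and 25.6 in torin1. The passage 12 libraries stood above the other WT libraries in both treatments, with a log2 response of -0.27 against -0.39 to -0.44 in the other WT passages. Torin1 lowered it 1.29-fold in WT and raised it 1.58-fold in AMPK KO (interaction 1.04, SE 0.09, edgeR adjusted p = 5.2e-07). Etv5, an ETS-family factor, fell from 46.5 ± 6.76 to 28.0 ± 4.13 CPM in WT and was at 46.4 ± 4.56 and 49.2 ± 1.61 CPM in AMPK KO, with an interaction of 0.82 (SE 0.07, edgeR adjusted p = 5.2e-07). Its levels were alike between the genotypes in DMSO (log2 difference -0.01) and apart in torin1 (0.81).

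Other members called higher were Etv1 at 0.63, Fosl1 at 0.58, Phlda1 at 0.50, Plaur at 0.42, Spred1 at 0.30 and Epha2 at 0.28. Called lower were Dusp10, a phosphatase of the stress kinases JNK and p38, at -0.70 and the cytokine gene Lif at -0.31. Spry1, Spry2, Dusp4 and Dusp5 were not called.

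Of 28 immediate early genes, 12 had a higher torin1 response in AMPK KO (42.9%, against 6.24% of all genes tested). Another 3 had a lower one (10.7%, against 5.52%). The median interaction was 0.34, with median log2 responses of -0.20 in WT and 0.12 in AMPK KO. The numbers called were 6 higher and 2 lower without the block. Egr1, a zinc-finger factor, was at 175, 152, 130 and 138 CPM in WT DMSO and at 92.7, 86.6, 66.6 and 91.7 in WT torin1. Egr1 in AMPK KO was at 108, 76.9, 92.0 and 99.0 CPM in DMSO and at 91.3, 64.2, 103 and 94.3 in torin1. It fell in each WT passage and showed no called change in AMPK KO (interaction 0.72, SE 0.10, edgeR adjusted p = 7.2e-05). Maff at 0.72, Egr3 at 0.64, Nr4a1 at 0.55, Zfp36 at 0.50, Ier2 at 0.49, Myc at 0.47 and Junb at 0.31 were also called higher. The 3 called lower were the Kruppel-like factors Klf4, Klf2 and Klf10. Klf4 was at 31.7 ± 5.87 and 29.6 ± 4.97 CPM in WT DMSO and torin1 and fell from 17.5 ± 2.01 to 7.32 ± 0.62 in AMPK KO, an interaction of -1.15 (SE 0.12, edgeR adjusted p = 6.9e-06).

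Serum response factor (SRF) drives immediate early genes and, with MRTF coactivators, genes of actin contraction, through the CArG box. Of 30 SRF and contractile genes, 9 had a higher torin1 response in AMPK KO and 0 a lower one, with a median of 0.19. The 9 are 30.0% of the list, against 6.24% of all genes tested. The count called higher was 6 under other scalings, 4 with the 16 libraries alone, 3 without the block, and 4 or 5 without any one of the 6 shifting libraries. Srf itself was at 158, 165, 171 and 149 CPM in WT DMSO and at 109, 113, 99.7 and 108 in WT torin1. Srf in AMPK KO was at 79.1, 89.7, 87.1 and 99.3 CPM in DMSO and at 85.9, 89.0, 94.6 and 101 in torin1. Srf fell in each WT passage and hardly moved in AMPK KO (interaction 0.65, SE 0.08, edgeR adjusted p = 2.2e-05). The others called were Myl9 at 0.49, Cnn2 at 0.45, Acta2 at 0.42, Cald1 at 0.32, Tgfb1i1 at 0.31, Vcl and Smtn at 0.28 and Tpm4 at 0.27, which encode myosin light chain, actin and actin-binding or adhesion proteins. CArG boxes were in 8 of the 26 members' promoter windows at hand (30.8%), against 1.59% of all windows, and in 4 of the 8 windows of members called. Since members were chosen as genes driven by SRF, these shares say nothing about the interaction. Over all genes called, the box was in 2.5% of windows of those higher and 0.758% of those lower. The window of Srf is shown because it holds a pair of CArG boxes, in capitals, at 82 and 62 bases before the start.
Srf (chr17:46556113-46556412, minus strand): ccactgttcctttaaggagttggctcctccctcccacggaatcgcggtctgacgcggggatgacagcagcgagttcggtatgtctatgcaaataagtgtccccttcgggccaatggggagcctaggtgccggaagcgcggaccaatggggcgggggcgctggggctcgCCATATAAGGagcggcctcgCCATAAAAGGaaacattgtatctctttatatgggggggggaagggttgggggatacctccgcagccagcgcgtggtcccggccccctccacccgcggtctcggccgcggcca

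Of 22 YAP and TAZ targets, which report on stretch and cell contact, 5 were called higher and 2 lower. That is 22.7% and 9.09%, against 6.24% and 5.52% of all genes tested. Ccn2 at 0.57, Ankrd1 at 0.55 and Ccn1 at 0.43 were higher, and F3, the tissue factor gene, at -0.73 and Gadd45b at -0.46 were lower. The counts were 2 and 1 without the block, and the 5 became 3 without the WT torin1 library of passage 14.

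Chemokines and cytokines moved the other way. These are secreted signals of inflammation, many of them driven by NF-kappaB. Only 19 of 30 passed the filter, and of these 8 had a lower torin1 response in AMPK KO and 0 a higher one. The 8 are 42.1% of those tested, against 5.52% of all genes tested. The median interaction was -0.47, with a median log2 response of 0.55 in WT and -0.06 in AMPK KO. Without the block, 3 were called lower.

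Ccl2, a monocyte chemoattractant, was at 3.48, 7.06, 4.84 and 5.19 CPM in WT DMSO and at 9.31, 17.3, 12.1 and 11.3 in WT torin1. Ccl2 in AMPK KO was at 15.6, 18.0, 19.0 and 16.4 CPM in DMSO and at 14.0, 14.1, 14.9 and 12.4 in torin1. Torin1 raised it in each WT passage and lowered it in each AMPK KO passage, which brought the genotypes to overlapping levels. The rise in WT was 2.43-fold and the fall in AMPK KO 1.24-fold (interaction -1.60, SE 0.13, edgeR adjusted p = 4.4e-07). Cxcl10, an interferon-induced chemokine, rose from 7.21 ± 0.37 to 9.91 ± 0.312 CPM in WT and went from 18.6 ± 3.35 to 16.1 ± 1.66 in AMPK KO, with an interaction of -0.67 (SE 0.09, edgeR adjusted p = 3.1e-05). Ccl7 at -1.52, Tslp at -0.95, Cx3cl1 at -0.49, Cxcl12 and Nfkbia, an inhibitor of NF-kappaB, at -0.32 and Lif at -0.31 were also called lower.

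Interferon-stimulated genes encode antiviral proteins and antigen-processing parts. Of 36 tested, 10 had a lower torin1 response in AMPK KO and 1, the MHC class I gene H2-K1, a higher one (0.34). Over the list, 27.8% were called lower and 2.78% higher, against 5.52% and 6.24% of all genes tested. The median was -0.34, with median log2 responses of 0.46 in WT and 0.28 in AMPK KO. The call of H2-K1 was lost without the block, and the 10 became 2 without the block, 6 with an offset for transcript length and 6 without the WT torin1 library of passage 15 at kept scaling factors. Tap2, a subunit of the antigenic peptide transporter, was at 3.96, 2.52, 3.19 and 3.21 CPM in WT DMSO and at 7.13, 7.71, 7.18 and 9.46 in WT torin1. Tap2 in AMPK KO was at 53.6, 45.2, 60 and 52.9 CPM in DMSO and at 64.2, 58.5, 80.8 and 70.2 in torin1. It rose in all passages of both genotypes, 2.43-fold in WT and 1.29-fold in AMPK KO, where its DMSO level was far above that of WT (interaction -0.91, SE 0.14, edgeR adjusted p = 0.00015). Gbp7 at -0.66, Gbp2 at -0.55, Parp14 at -0.53, Tap1 at -0.51 and Irf1 at -0.35 were among the others.

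Cebpd, a transcription factor of the acute phase, was at 3.58, 5.05, 3.37 and 4.32 CPM in WT DMSO and at 7.67, 14.3, 10.3 and 12.3 in WT torin1. Cebpd in AMPK KO was at 3.91, 4.79, 3.54 and 3.99 CPM in DMSO and at 4.24, 3.15, 5.14 and 3.88 in torin1. Levels overlapped between the genotypes in DMSO, and the rise passed the test in WT and not in AMPK KO (interaction -1.42, SE 0.17, edgeR adjusted p = 1.8e-05).

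**Figure D4:**
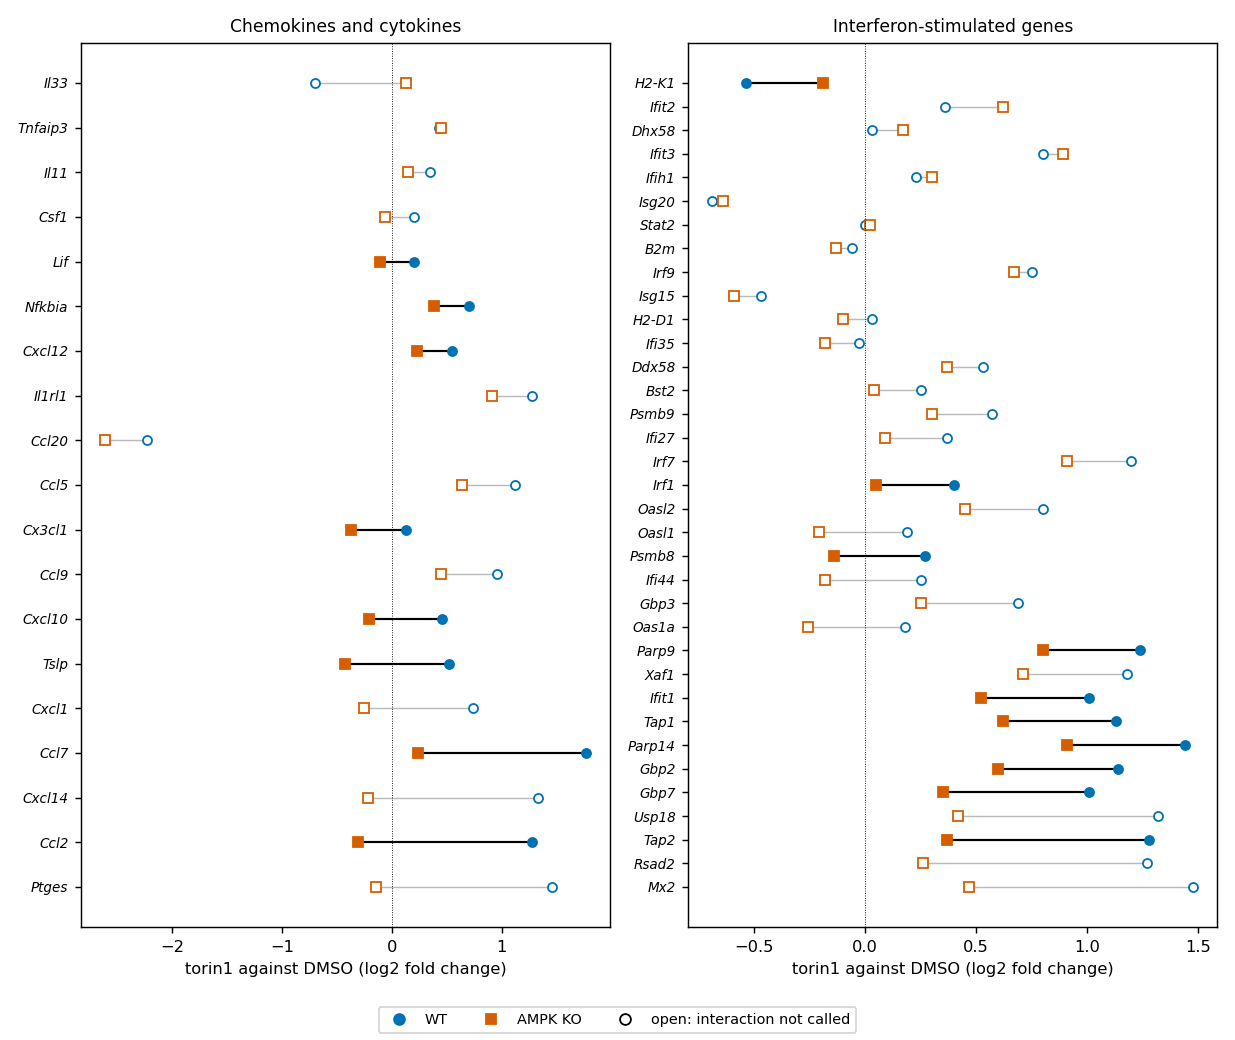
Torin1 response (log2 fold change against DMSO) of the 19 tested chemokine and cytokine genes (left) and 35 of the 36 tested interferon-stimulated genes (right) in WT (circles) and AMPK KO (squares), ordered by interaction. Filled symbols mark the members whose interaction was called, 8 of 19 and 10 of 35 (the interferon-stimulated gene not drawn was also called), and among these the AMPK KO square lies to the left of the WT circle except for H2-K1.

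Past these groups, among called genes with a mean of at least 5 CPM, the largest negative interaction but that of Pcdhga10 (described below) was that of Afap1l2 (chromosome 19, 56912361 to 57008228, minus strand), an adaptor of SRC and PI3K signalling. It was at 1.19, 1.61, 1.30 and 1.40 CPM in WT DMSO and at 5.60, 7.27, 8.42 and 7.83 in WT torin1. Afap1l2 in AMPK KO was at 37.5, 38.8, 52.0 and 42.0 CPM in DMSO and at 41.5, 43.3, 51.9 and 43.6 in torin1. Torin1 raised it 5.26-fold in WT, and AMPK KO was high in both treatments (interaction -2.31, SE 0.13, edgeR adjusted p = 2.8e-09). Frmd5, a FERM-domain protein of cell junctions, rose from 4.40 ± 0.769 to 13.9 ± 1.88 CPM in WT and was at 2.35 ± 0.345 and 1.96 ± 0.458 in AMPK KO, with an interaction of -1.94 (SE 0.17, edgeR adjusted p = 8.4e-07). Unlike Afap1l2, Frmd5 was lower in AMPK KO than in WT in both treatments. Bmyc at -1.71 and Hddc3 at -1.29 were, like Afap1l2, far higher in AMPK KO, with means of 0.496 and 0.828 CPM in WT DMSO and 19.0 and 9.77 in AMPK KO DMSO.

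On the positive side, Bach2, a transcriptional repressor, was at 24.6 ± 2.51 and 26 ± 2.34 CPM in WT DMSO and torin1 and rose from 4.34 ± 0.979 to 10.1 ± 0.526 in AMPK KO, an interaction of 1.14 (SE 0.13, edgeR adjusted p = 1.3e-05). Apoe, the apolipoprotein of lipid transport, had an interaction of 1.34 (SE 0.28, edgeR adjusted p = 0.002), with means of 1.28 and 0.596 CPM in WT and 15.4 and 18.4 in AMPK KO. Dock4, a RAC1 activator, had an interaction of 0.96.

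Some of the largest fitted interactions came from genes with almost no reads in one genotype. Hoxd13, a posterior HOX gene, had 713 to 1350 counts in WT libraries and 0 to 4 in AMPK KO libraries. Its fitted interaction (2.22, SE 0.74) was called in 5 of 16 fits that left out 1 library. Camk2a had 4 to 11 counts in WT and 744 to 1322 in AMPK KO libraries. Its fitted interaction of 1.42 lost its call without the block and without the WT torin1 library of passage 15. Nup210 had 0 to 9 counts in WT DMSO, 11 to 24 in WT torin1 and 397 to 612 in AMPK KO. Pcdhga10, a protocadherin whose exons are shared with its cluster neighbours so that reads may be split among them, had 0 counts in each WT DMSO library, 2 to 9 in WT torin1 and 565 to 766 in AMPK KO, and no fold change is given. For these genes the WT or AMPK KO response is a change between near-absent levels. Of the 1861 genes called, 21 had a group in which no library exceeded 3 counts.

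In 50 genes, torin1 changed the RNA in opposite directions. Of these, 22 fell in WT and rose in AMPK KO, and 28 rose in WT and fell in AMPK KO. Tnfaip2, a cytokine-induced gene of membrane protrusions, fell from 71.3 ± 9.55 to 48.0 ± 8.64 CPM in WT and rose from 1.62 ± 0.267 to 2.81 ± 0.406 in AMPK KO, an interaction of 1.37 (SE 0.14, edgeR adjusted p = 3.9e-06). Lmx1b, a LIM homeobox factor of limb and kidney development, fell from 33.0 ± 2.00 to 25.4 ± 2.24 CPM in WT and rose from 3.75 ± 1.69 to 6.43 ± 1.01 in AMPK KO, an interaction of 1.18 (SE 0.14, edgeR adjusted p = 1.3e-05). In both, AMPK KO remained far below WT. Zfp503, with an interaction of 1.0, had an AMPK KO level of 0.726 ± 0.239 CPM in DMSO and 1.15 ± 0.595 in torin1, and its passage 19 pair went down.

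In the other direction, Usp43, a deubiquitinase, rose from 2.32 ± 0.285 to 4.18 ± 0.458 CPM in WT and fell from 13.2 ± 2.02 to 9.39 ± 0.578 in AMPK KO, an interaction of -1.34 (SE 0.12, edgeR adjusted p = 8.4e-07). Adra1b, an adrenergic receptor, rose from 7.28 ± 1.19 to 12.4 ± 1.05 CPM in WT and fell from 5.02 ± 0.897 to 3.36 ± 0.557 in AMPK KO, an interaction of -1.36 (SE 0.22, edgeR adjusted p = 0.00029). Adgrg1, an adhesion receptor, and Serpinb9, a granzyme inhibitor, had interactions of -1.24 and -0.97 and were higher in AMPK KO than in WT in both treatments. Megf6 had 1 to 26 counts per WT library and 569 to 1429 per AMPK KO library, so that its WT response, like those of the genes above, lay between near-absent levels, and its WT passage 14 pair went down slightly (fitted interaction -2.05).

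Of 29 MTORC1 brakes and nutrient sensors, 6 were called higher and 2 lower, with a median of 0.09. These shares were 20.7% and 6.9%, against 6.24% and 5.52% of all genes tested. Beside Ddit4 and Sesn2, those called higher were Deptor, an MTOR-binding inhibitor, at 0.51, Lamtor3 of the Ragulator complex at 0.34, and Fnip1 and Flcn. The proteins of Fnip1 and Flcn form the RRAGC/RRAGD activator at the lysosome. Fnip1 rose from 28.0 ± 0.767 to 51.6 ± 8.05 CPM in WT, and AMPK KO values went from 21.9 ± 2.51 to 56.7 ± 9.85, an interaction of 0.49 (SE 0.11, edgeR adjusted p = 0.0029). Flcn rose 1.52-fold in WT and 1.86-fold in AMPK KO (interaction 0.29, SE 0.10, edgeR adjusted p = 0.043), and it was called in 4 of 16 fits that left out 1 library. Fnip1 and Flcn, with Hexa and Ctsa, are the TFEB targets that the study chose for RT-qPCR. Neither of the latter was called, Hexa at -0.08 (SE 0.08) with an edgeR adjusted p of 0.59 and Ctsa at 0.11 (SE 0.07) with 0.31. Called lower were Rragd, a RAG GTPase, at -1.12 and the arginine sensor Castor1 at -0.64, and the 2 lower calls became 4 to 6 without any one of the 6 shifting libraries but the WT torin1 library of passage 15.

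Tfeb, the lysosomal and autophagy transcription factor, was at 8.76, 10.2, 10.9 and 9.47 CPM in WT DMSO and at 8.70, 11.2, 9.75 and 11.3 in WT torin1. Tfeb in AMPK KO was at 10.4, 12.7, 13.9 and 13.4 CPM in DMSO and at 8.63, 9.18, 9.74 and 9.13 in torin1. Its RNA fell 1.37-fold in AMPK KO alone by the call, and the response itself differed (interaction -0.51, SE 0.09, edgeR adjusted p = 0.00063). Tfe3 and Mitf had interactions of 0.03 and -0.12 and were not called.

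Of 44 lysosomal hydrolases, 4 were called higher and 1 lower, with a median interaction of 0.03 and median log2 responses of 0.33 in WT and 0.32 in AMPK KO. Idua at 0.58, Sgsh at 0.32, Ids at 0.29 and Arsa at 0.28 were higher and Ctsf at -0.44 lower. The counts were 2 or 3 and 2 or 3 under other scalings, 1 and 0 without the block, and 1 to 4 and 0 to 5 without single libraries, with 1 higher and 5 lower without the AMPK KO DMSO library of passage 18. The total share of 11.4% was close to the 11.8% of all genes. Of 45 autophagy genes, 1 was called, the kinase gene Ulk2 at 0.35, a share of 2.22% against 11.8% of all genes. Without single libraries, 0 to 5 were called higher and 0 to 2 lower, with 5 higher without the WT torin1 library of passage 13 and 4 without the AMPK KO DMSO library of passage 19. Of 40 V-ATPase and lysosomal membrane genes, 5 were called higher and 2 lower (median 0.08). That is 12.5% and 5.0%, against 6.24% and 5.52% of all genes tested. The 5 became 2 without the block and 2 to 7 without single libraries. Among them, Gpnmb, a lysosomal glycoprotein and TFEB target, rose from 4.40 ± 1.2 to 40.8 ± 14.6 CPM in WT, and AMPK KO values went from 0.842 ± 0.181 to 16.0 ± 6.65, 9.13-fold and 18.8-fold. Its interaction of 1.04 (SE 0.29, edgeR adjusted p = 0.016) was called in 12 of 16 fits that left out 1 library, and the adjusted p was 0.22 without the block.

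Of 13 AMPK and LKB1 genes, Prkaa2 and Cab39 were called, the latter in 10 of 16 fits that left out 1 library. The share called was 15.4%, against 11.8% of all genes tested. Prkaa2 was at 5.71, 3.22, 5.44 and 4.58 CPM in WT DMSO and at 5.21, 3.62, 4.46 and 4.79 in WT torin1. Prkaa2 in AMPK KO was at 4.48, 3.43, 2.34 and 2.58 CPM in DMSO and at 5.71, 5.13, 4.42 and 4.46 in torin1. The rise was seen in each AMPK KO passage and gave an interaction of 0.70 (SE 0.15, edgeR adjusted p = 0.0026), with an adjusted p of 0.12 without the block. Prkaa1 had an interaction of 0.15 (SE 0.06, edgeR adjusted p = 0.075).

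Of 49 mitosis genes, 13 (26.5%, against 6.24% of all genes tested) had a higher torin1 response in AMPK KO and 0 a lower one. The median was 0.19, with median log2 responses of -0.09 in WT and 0.15 in AMPK KO. The called differences were small, from 0.27 for Anln, a cytokinesis protein, to 0.38 for Plk1, the mitotic kinase, and Ect2. They were near the fold threshold, so that the count moved with the scaling. It was 9 to 12 under other scalings, 5 with the 16 libraries alone and 3 to 7 without any one of the 6 shifting libraries, while with the scaling factors kept it was 11 to 17. Prc1, a microtubule crosslinker of the spindle, was at 240 ± 16.2 and 210 ± 16.6 CPM in WT DMSO and torin1 and at 232 ± 3.76 and 256 ± 10.7 in AMPK KO, an interaction of 0.34 (SE 0.04, edgeR adjusted p = 1.3e-05). Of 45 DNA replication genes, 0 were called higher and 6 lower (median -0.09), namely Prim1, Pole, Pold1, Gins2, Rpa1 and E2f1, between -0.33 and -0.27. The 6 are 13.3% of the list, while 5.52% of all genes tested were called lower and 11.8% either way. They lay near the fold threshold, and 0 were called in the test against a fold change of 1.2. The 6 became 10 without the AMPK KO DMSO library of passage 18. Pole, the leading-strand polymerase, rose from 132 ± 11.1 to 249 ± 11.7 CPM in WT, and AMPK KO values went from 135 ± 5.32 to 204 ± 6.55, an interaction of -0.32 (SE 0.05, edgeR adjusted p = 0.0001).

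Products of p53 target genes arrest the cycle or promote cell death. Of 26 p53 targets tested, 10 were called higher and 1 lower. These shares were 38.5% and 3.85%, against 6.24% and 5.52% of all genes tested. The median interaction was 0.24, with median log2 responses of -0.65 in WT and -0.29 in AMPK KO. Ccng1, cyclin G1, was at 112, 86.7, 96.9 and 87.3 CPM in WT DMSO and at 57.6, 51.1, 52.9 and 52.0 in WT torin1. Ccng1 in AMPK KO was at 59.0, 53.6, 48.9 and 48.5 CPM in DMSO and at 43.3, 41.3, 39.3 and 38.2 in torin1. The fall was 1.79-fold in WT and 1.29-fold in AMPK KO without overlap of the responses (interaction 0.47, SE 0.06, edgeR adjusted p = 1.6e-05). Cdkn1a, the CDK inhibitor p21, fell from 65.8, 34.9, 36.3 and 30.5 to 18.3, 19.3, 14.4 and 14.1 CPM in WT, and AMPK KO values went from 60.9, 48.1, 50.9 and 43.7 to 31.2, 36.2, 32.2 and 28.6. The passage 12 library was high in WT DMSO, the responses of WT and AMPK KO overlapped, and the interaction was 0.64 (SE 0.16, edgeR adjusted p = 0.0065, 0.17 without the block). Mdm2, the p53 ubiquitin ligase, was at 0.32, and the death receptor gene Fas was the member called lower (-0.76), a call lost without the block. Sesn2 and Cdkn1a belong to more than 1 list, as do Ddit4, Slc7a3, Srf, Fosl1, Myc, Lif, Ccn1 and Ccn2, among others. The counts of such lists therefore share genes. Of 21 G1 cyclins and CDK inhibitors, 5 were called higher, including Rb1 at 0.54, Myc at 0.47 and Ccnd1 at 0.38, and Cdkn1c lower at -0.47. Over the list, 23.8% were called higher and 4.76% lower, against 6.24% and 5.52% of all genes tested. Without the block none of the 21 was called in edgeR, and DESeq2 with the block called 5 higher and 1 lower.

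Txnip, an arrestin-like protein that restrains glucose uptake, was listed with other arrestin-domain genes, the sugar sensors Mlx and Mlxip, and Txn1. Of the 8 members, 4 were called lower and 0 higher (median -0.23). Txnip was at 30.1, 15.6, 15.6 and 19.1 CPM in WT DMSO and at 99.8, 114, 131 and 126 in WT torin1. Txnip in AMPK KO was at 29.2, 15.0, 22.2 and 16.8 CPM in DMSO and at 58.7, 47.3, 62.7 and 50.6 in torin1. Levels overlapped in DMSO, and each WT library exceeded each AMPK KO library in torin1. The rise was 6.10-fold in WT and 2.72-fold in AMPK KO (interaction -1.17, SE 0.33, edgeR adjusted p = 0.015, 0.11 without the block). Arrdc4 at -0.69, Arrdc3 at -0.50 and Arrdc1 at -0.32 were the others, and 2 members were called without the block.

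Matrix proteases and their inhibitors had 5 of 25 members called lower and 1 higher. Timp3, an inhibitor of metalloproteinases, was at 179, 273, 232 and 224 CPM in WT DMSO and at 492, 467, 526 and 454 in WT torin1. Timp3 in AMPK KO was at 205, 236, 272 and 286 CPM in DMSO and at 247, 238, 258 and 285 in torin1. It rose 2.19-fold in WT and showed no called change in AMPK KO, from overlapping levels in DMSO (interaction -1.08, SE 0.18, edgeR adjusted p = 0.00043). Mmp10 (mean under 5 CPM) at -2.61, Mmp9 at -1.19, Adam8 at -1.14 and Adamts1 at -0.69 were lower, and Adam12 at 0.35 higher. Without the block 2 were called lower and 0 higher. With the block, the list median was -0.15. It was -0.09 without the 2 members with a group in which no library exceeded 3 counts. Collagens and other matrix genes had 4 of 44 called higher and 6 lower (median 0.00), with Loxl3 at -0.61 and Col8a2 at 0.66 as examples. Their shares were 9.09% and 13.6%, against 6.24% and 5.52% of all genes tested. Without the block 0 were higher and 1 lower, and without single libraries 1 to 7 and 4 to 11, with 11 lower without the WT torin1 library of passage 14. Integrins and laminins had 1 of 27 called higher and 3 lower, the latter being Itga2 at -1.06, Itga7 at -0.96 and Itgb7 at -0.76, and the 3 became 6 or 7 under other scalings and without any one of the 6 shifting libraries. In the fit of all libraries, 14.8% of integrins and laminins were called, against 11.8% of all genes tested. TGF-beta and BMP feedback genes had 3 of 30 higher, with Bambi at 0.80, and 4 lower, with Smad6 at -0.76, and 1 each way without the block. With the block their shares were 10.0% and 13.3%, against 6.24% and 5.52% of all genes tested.

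Between 11.1% and 23.8% of members, 2 to 7 genes each, were called in the metabolic, hormone-sensing, clock and heat shock lists. Over all genes tested the share was 11.8%, so that the fatty acid synthesis list (11.1%) did not exceed it. PDE4 and cAMP-CREB genes had 1 of 19 called higher and 3 lower, the latter being Ppargc1a, the PGC-1 alpha coactivator, at -1.31, the kinase gene Sik1 at -0.72 and Pde4b at -0.44. Mitochondrial biogenesis and dynamics genes had 3 of 21 called lower, Ppargc1a, Ppargc1b at -0.83 and Tfb1m at -0.50, and Gabpa called higher at 0.42. Kruppel-like factors had 3 of 14 called lower, FOXO and insulin feedback genes 4 of 21 lower and 1 higher, and circadian clock genes 2 of 20 each way, with Rora at 1.01 and Dbp at -0.68. Glycolysis and hypoxia genes had 3 of 36 called higher and 4 lower, among them Slc2a1, the glucose transporter GLUT1, at 0.40 and Eno2 at -0.59. Fatty acid synthesis genes had 2 of 18 called higher, with the phosphatidate phosphatase Lpin1 at 0.88. Heat shock chaperones, in contrast to those of the ER, had 3 of 23 called higher and 2 lower, with a median of 0.01. Without the block, 0 to 2 members of each of these 8 lists were called higher and 0 to 3 lower. The 4 lower calls of FOXO and insulin feedback genes became 8 without the WT torin1 library of passage 15, and the 2 higher calls of fatty acid synthesis genes became 5 without that of passage 12.

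The large housekeeping lists held few calls in the fit of all libraries. Of 76 cytosolic ribosomal proteins, 0 were called and the median interaction was -0.03. Ribosome biogenesis factors had 1 call of 48, translation factors 4 higher of 46, cholesterol synthesis genes 1 of 25 (Mvk, mevalonate kinase, at 0.27), NRF2 targets 1 each way of 28, respiratory chain subunits 2 higher and 1 lower of 78, mitochondrial ribosomal proteins 3 lower of 78, mitochondrially encoded genes 2 lower of 13 and proteasome subunits 2 lower of 37, of which Psmb8 and Psmb10 belong to the interferon-induced immunoproteasome. The shares called lay below the 11.8% of all genes except that of the mitochondrially encoded genes (15.4%), and the medians lay between -0.16 and 0.11. The cholesterol synthesis list had 12 higher calls of 25 without the WT torin1 library of passage 12, also with scaling factors kept, 0 without the block and 0 to 2 without any other single library. Mitochondrial ribosomal proteins had 8 to 11 lower calls without any one of the 6 shifting libraries and 2 to 4 with scaling factors kept. Respiratory chain subunits had 0 to 3 higher and 0 to 5 lower calls without single libraries, and mitochondrially encoded genes had 0 to 4 lower calls without single libraries and 0 without the block.

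**Figure D5:**
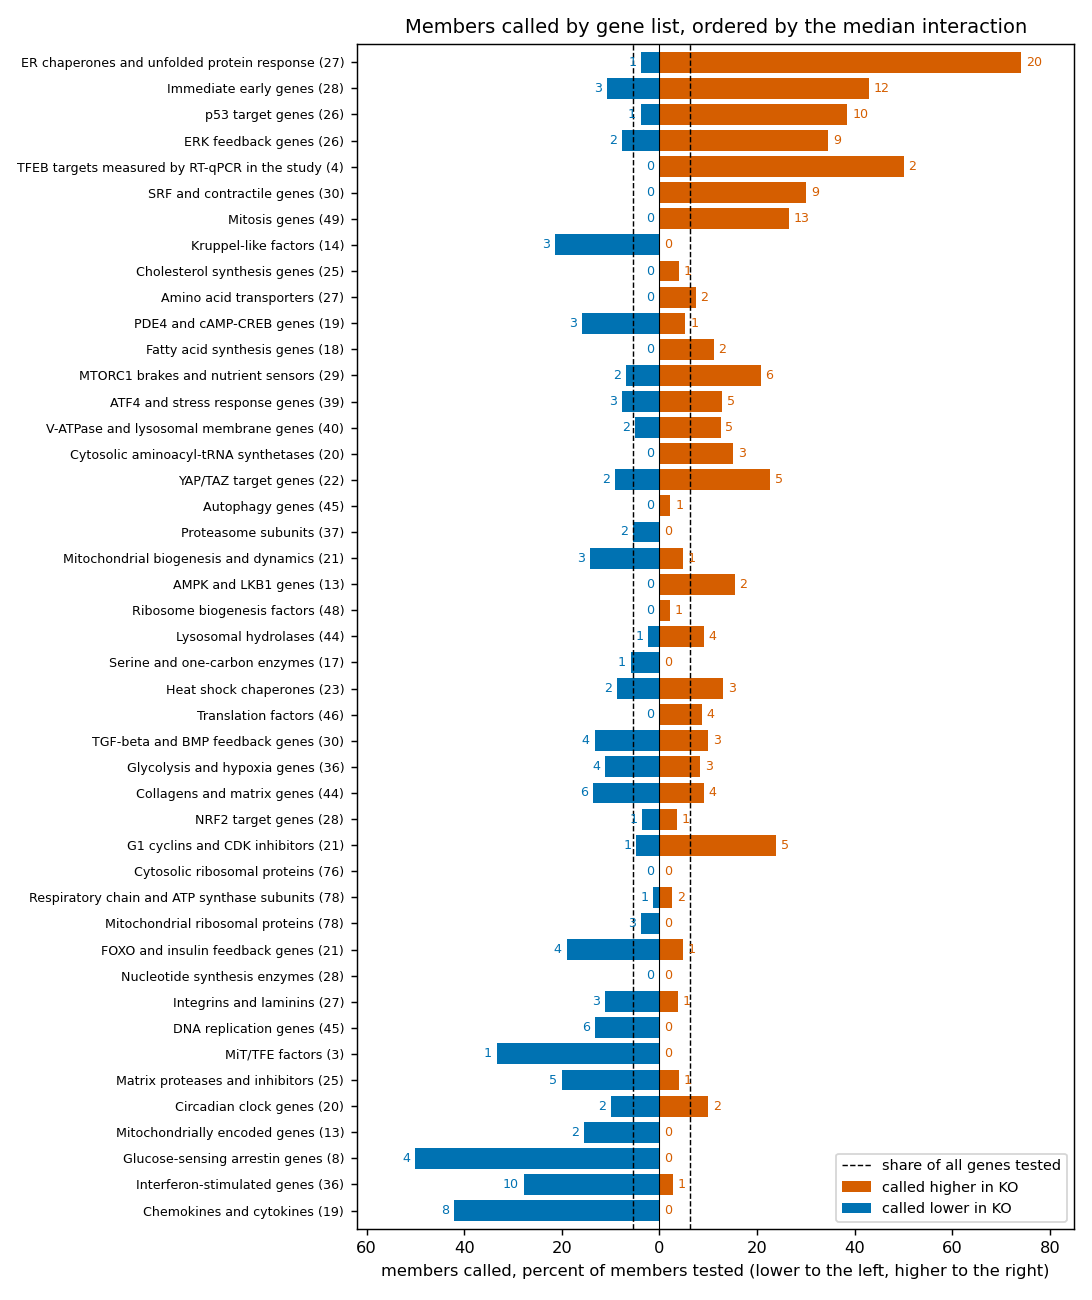
Share of tested members (percent) whose torin1 response was called higher (orange, to the right) or lower (blue, to the left) in AMPK KO, for 45 gene lists ordered by their median interaction. Numbers at the bars are genes, the number tested is in parentheses, and dashed lines mark the shares among all genes tested, 6.24% and 5.52%: ER chaperones lie farthest to the right with 20 of 27, and chemokines (8 of 19) and glucose-sensing arrestins (4 of 8) far to the left.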

How the data were processed

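Poly(A) RNA of 24 MEF libraries was sequenced by the authors in paired ends, aligned to GRCm38 with STAR and quantified with Salmon in the nf-core pipeline with UMI handling, tools and build being named in the submitters' processing notes. The authors deposited estimated counts per gene and per transcript, of which 14.7% of gene values are not whole. The authors also removed a batch effect for their own analysis, whereas the deposited counts were used here as they stand. For 1 alternative, effective transcript lengths weighted by the deposited TPM values gave each gene a length offset. The number of sample columns left out was 0.

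Estimated counts were rounded, filtered by filterByExpr and scaled by TMM, and all 24 libraries were fitted with passage within genotype as a block in edgeR 4.0.16 (R 4.3.3, limma 3.58.1), which gave 12 residual degrees of freedom and a common biological coefficient of variation of 0.0475. Differences between genotypes within a treatment came from the fit without the block. A gene was called at a Benjamini-Hochberg adjusted p under 0.05 over 15828 genes and a fold change of at least 1.2. CPM values are counts scaled by TMM to a common library size, and SE is the standard error of a log2 value. This SE comes from the edgeR fit and so includes the spread between libraries. In data simulated for this comparison with 200 changed genes among 15828, 100% were recovered at a log2 interaction of 1 and 97% at 0.6, with 11 false calls of 208, and 0 calls were made where none had been added. The changed genes were drawn from those with a mean of at least 5 CPM, and no passage effect was simulated. The recovery therefore does not cover genes with fewer counts, and the simulation cannot show how passage effects bear on the calls.

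Deviations of DMSO and torin1 libraries of the same passage from their group means correlated at 0.172 to 0.607 over genes in 7 of 8 passages and at -0.097 in passage 14. The labels give the passage, and the block follows it.

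The gene lists, the comparison and the genes named were chosen with earlier results of these data known. Genes named are, among called genes with a mean of at least 5 CPM, the 12 largest interactions each way and the 5 largest opposite responses each way, up to 4 called members of each list by smallest p, and fixed genes of the AMPK, TFEB and amino acid pathways (Prkaa1, Prkaa2, Hexa, Ctsa, Flcn, Fnip1, Tfeb, Tfe3, Mitf, Ddit4, Slc7a3, Afap1l2, Slc7a11, Trib3 and Gpnmb). Gdf15, Hspa5, Cdkn1a, other list members beyond these and the ER stress response element and CArG box were chosen after their values were seen. Promoter windows are RefSeq sequences, and 9 motifs were searched. Shares of windows holding the others follow for genes called higher, called lower and all tested, with no test. The E-box CACGTG had 13.3%, 11.2% and 11.6%, and the ATF4 half-site 2.5%, 3.03% and 2.59%. AP-1 had 7.11%, 8.64% and 6.18%, and CRE 4.61%, 1.52% and 3.58%. The antioxidant response element had 19.6%, 15.8% and 16.6%. The Kruppel-like core had 68.8%, 72.1% and 67.2%, and forkhead 2.76%, 2.88% and 2.93%. Alternatives were DESeq2 1.42.0, other scalings, filters, thresholds, blocks, a transcript length offset and leaving out libraries or passages. Some genes tested are not reported here by name, and they remain in the counts of their lists.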

Additional observations from a re-analysis of the deposited data

Results flagged for a closer look

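The difference between the genotypes was flagged for the 987 genes with a higher and the 874 genes with a lower torin1 response in AMPK KO, since each passed a test of the difference itself. It was also flagged for the 22 genes that fell in WT and rose in AMPK KO and the 28 that did the reverse. Among these, the tested interaction was 1.37 for Tnfaip2, 1.18 for Lmx1b, 1.04 for Dusp6, 1.0 for Zfp503 and 0.81 for Ero1lb, and it was -2.05 for Megf6 (1 to 26 counts per WT library), -1.36 for Adra1b, -1.34 for Usp43, -1.24 for Adgrg1 and -0.97 for Serpinb9.

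Single libraries stood apart from the other 3 of their group, by Dixon's criterion, in 13 of 200 groups of values, where chance flags about 1 in 20. The 200 are groups of gene values and of the libraries' deviations from group means, and all 13 were of gene values. In WT DMSO the library of passage 12 was the one apart for Slc7a3 (42.9 CPM), Vldlr (86.9 CPM), Dusp6 (44.7 CPM), Cdkn1a (65.8 CPM) and Pole (149 CPM). In WT torin1 it was the library of passage 12 for Dusp6 (37.0 CPM) and Tnfaip2 (60.8 CPM) and that of passage 13 for Megf6 (0.825 CPM). In AMPK KO DMSO the library of passage 16 was apart for Fnip1 (25.7 CPM) and Pole (143 CPM), and that of passage 18 for Camk2a (33.4 CPM). In AMPK KO torin1 the library of passage 17 was apart for Dnajc3 (45.3 CPM) and that of passage 16 for Nup210 (18.4 CPM). The interactions of Slc7a3, Vldlr, Dusp6, Cdkn1a and Pole were called in each of the 16 fits that left out 1 library.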

How the results depend on the processing

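Against 1861 genes called, the number was 1119 with no replicate block (657 higher, 462 lower in AMPK KO; 1116 of them among the 1861) and 976 with a replicate block by the title number (596 and 380; 972 among the 1861). The number was 3231 with the adjusted p alone (1963 of them higher), 522 at a fold change of 1.5 (174 and 348) and 300 in a test against a fold change of 1.2 (144 and 156). The higher count was 650 where at least 10 counts were asked in every library, and the 16 libraries alone gave 492 higher and 1356 lower. It was 479, 447, 515, 477 and 488 without passages 14 to 18 in order. Without single libraries, 463 to 1138 genes were higher and 709 to 1351 lower, and 874 to 1181 and 700 to 987 with scaling factors kept. The interaction of all genes shifted by -0.0211 to 0.00934 with WT libraries as TMM reference and by -0.0788 to -0.0497 with AMPK KO libraries, and the reference changed between these fits.

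Relative to the median of all genes, the matrix protease list had a median interaction of -0.161, -0.099 without passage 13, -0.038 without passage 16 and -0.164 to -0.066 without single libraries, and the AMPK and LKB1 list one of 0.125 without passage 15. With the transcript length offset 1488 genes were called, 1245 of them among the 1861, and 5 of the 1861 took the other sign. Among the named genes the interaction of Rbms3 reversed, to -0.139 with this offset, and the cause was not tested. Of 158 named genes called, 58 lost the call without the block, 61 with the title block, 22 in some scaling or with the 16 libraries alone, 25 with the length offset, 11 in DESeq2 and 51 without some library, and 66 kept it in each setting other than a fold of 1.5 and the test against 1.2. With a median SE of 0.093, differences near 1.2-fold are at the limit of these data.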
